A study of Mus musculus with 9 samples.

Results

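The brains of 2 mutant mouse lines, PG9VN and PG9V, were compared gene by gene across 6 of the 9 RNA-seq libraries of the series. Each line gave 3 libraries, 1 per mouse, at an age of 7.5 months. The other 3 libraries are wild type (WT) and serve here only to show the normal level. Thalamus, hypothalamus and midbrain were dissected together, and no animal was treated. As generally described, both lines lack progranulin, the lysosomal chaperone encoded by Grn, and they differ from each other at another locus. The labels themselves give only the line names and a model of neuronopathic Gaucher disease, and no sex, litter or strain. The comparison therefore sets 1 line against the other on a shared progranulin background. Of 33641 genes in the table, 17074 had enough counts to be tested.

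In Gaucher disease, glucosylceramide and glucosylsphingosine build up in lysosomes. In the brain, macrophage-like microglia take up cell debris and switch on a disease-associated program of phagocytic, lipid-handling and lysosomal genes. Astrocytes answer injury with a reactive program that includes intermediate filaments and cytokine receptors. Interferons induce antiviral genes, guanylate-binding GTPases and the antigen-presenting MHC class I genes in many cell types.

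PG9VN brain held more RNA of microglial, interferon-induced, MHC class I, complement and reactive astrocyte genes than PG9V brain, and less of a small group of midbrain transcription factor genes. By edgeR's quasi-likelihood test, at an adjusted p under 0.05 (Benjamini-Hochberg over all 17074 genes), 200 genes were called (1.17%). Of these, 177 rose in PG9VN (1.04%) and 23 fell (0.135%). The change was at least 2-fold for 130 of the genes that rose and for 18 of those that fell. Of the genes that rose, 97 were in none of the 51 gene lists used, and 11 of those that fell. For all 200, the values of the 3 PG9VN libraries did not overlap those of the 3 PG9V libraries. Over all genes tested, 2016 lay without overlap above PG9V (11.8%) and 1665 below (9.75%), and the median log2 fold change was -0.0031. An unadjusted p below 0.05 was reached by 1501 genes in the upward direction (8.79%) and by 871 downward (5.101%). Without PG9VN replicate 2 it was reached by 2225 upward and 1802 downward of 17373.

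**Figure D1:**
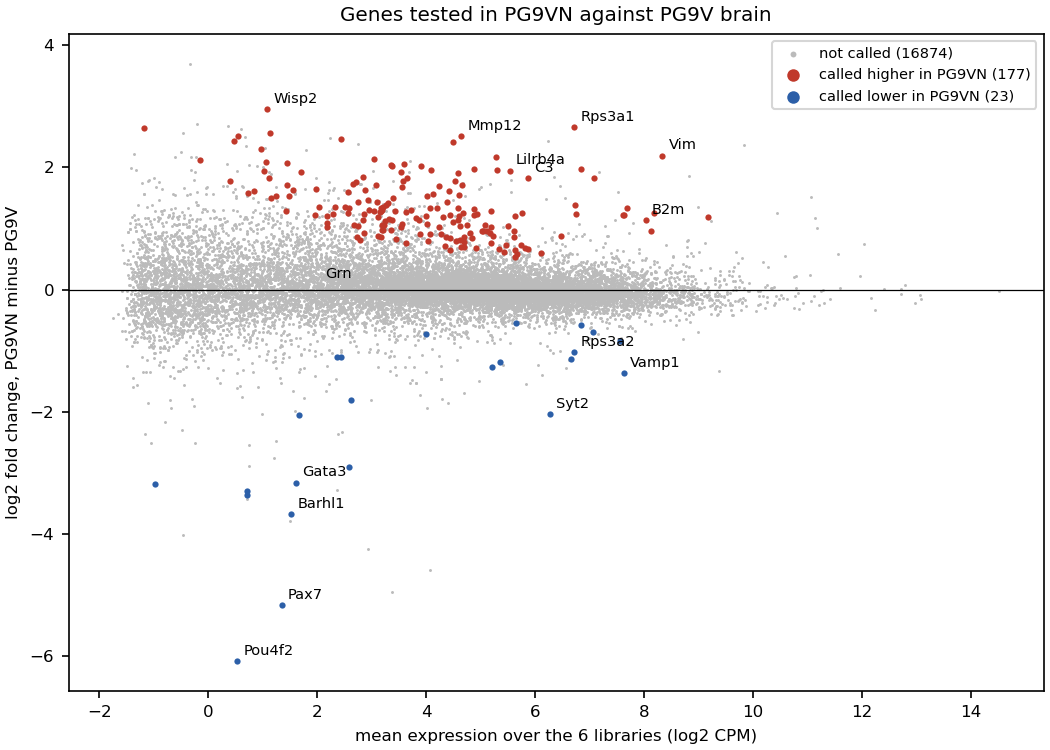
Log2 fold change of PG9VN against PG9V (vertical) against mean expression over the 6 libraries in log2 CPM (horizontal), 1 point per gene tested. The 177 genes called higher (red) reach across the range of expression, while the 23 called lower (blue) include a run of low-expressed transcription factor genes such as Pax7, Pou4f2 and Barhl1.

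How many genes passed depended strongly on which libraries were in the fit. Without PG9VN replicate 2, 782 genes were called higher (4.5%) and 397 lower (2.29%) of 17373 tested, and 172 of the 177 and all 23 were among them. Without PG9VN replicate 3, PG9V replicate 1 or PG9V replicate 3, edgeR called 0 genes, so no call made here survived the loss of each library in turn. In those 3 fits, 1191, 1121 and 994 genes were higher and 639, 478 and 471 lower at unadjusted p below 0.05, and the smallest adjusted p was 0.0598, 0.173 and 0.101. DESeq2 called 434, 434 and 391 genes higher and 134, 81 and 87 lower there, while limma-voom called 0. Without PG9V replicate 2, edgeR called 44 genes higher and 3 lower, and without PG9VN replicate 1 it called 150 and 52. Each of the 200 genes kept its direction and an unadjusted p below 0.05 in all 6 fits.

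**Figure D2:**
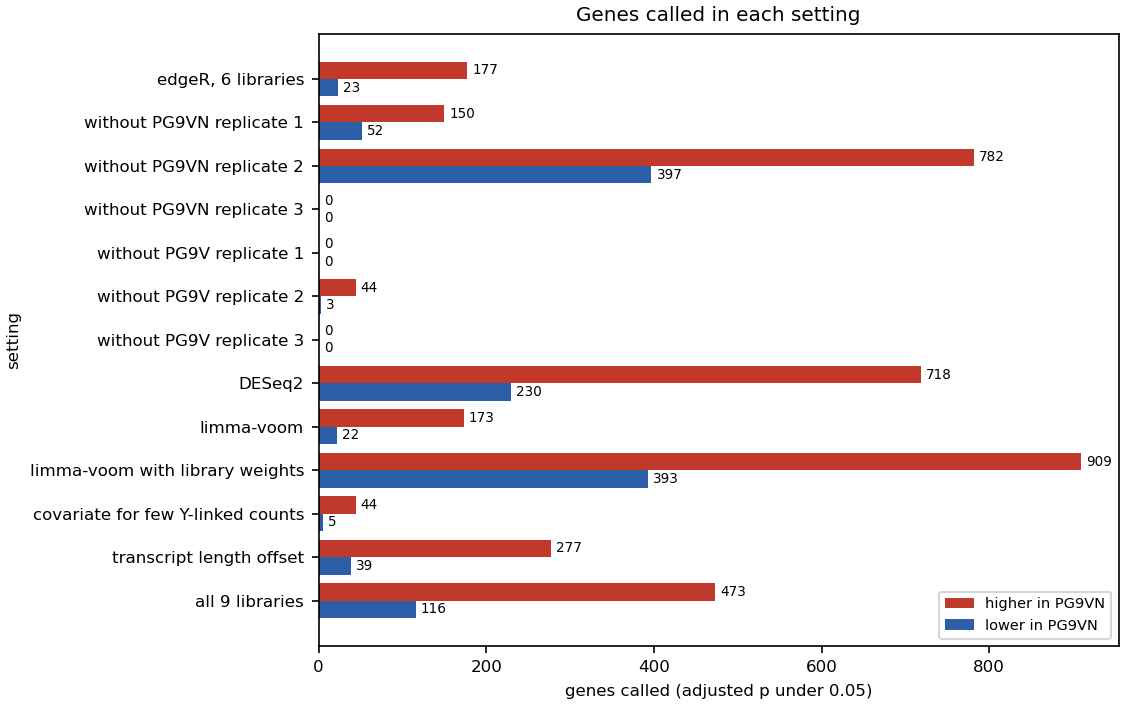
Number of genes called higher (red) and lower (blue) in PG9VN at an adjusted p under 0.05 (horizontal) in each setting (vertical). The count goes from 0 in 3 of the fits that leave out a library to 782 higher and 397 lower without PG9VN replicate 2.

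The 6 libraries held 27150311 to 30859540 counts. PG9VN replicate 2 stood apart on the first principal component (47.5% of the variance), at 79.4 against -27.6 to -7.43 for the other 5, and on the second (26.3%) it lay at -5.90, nearest to PG9V replicate 2 at -10.9, with the other PG9VN libraries at 30.7 and 41.1 and the other PG9V libraries at -30.5 and -24.4. The libraries also differed in their trend with transcript length. The Spearman correlation of a gene's deviation from the 6-library mean (log2 CPM) with its transcript length was -0.314 in PG9VN replicate 2. It was 0.320 in PG9V replicate 3 and -0.0998 to 0.184 in the others. Levels of regional marker genes differed too, and the part of dissected content in them was not tested. The mean level of 19 hypothalamic peptide genes was -2.47 on the log2 scale relative to the 6-library mean in PG9VN replicate 2, against -0.13 to 1.07 in the others, and 14 striatal genes gave -1.89 against -0.52 to 0.98. For 20 cortex and hippocampus genes the mean was 0.94 there, against -0.45 to 0.16. PG9V replicate 3 was high in 14 cerebellar genes, at 1.68 against -1.15 to 0.23. PG9V replicate 2 held 8 counts of the Y-linked gene Ddx3y, against 1173 to 2075 in the other 5. In these bulk samples, fewer cells of a type and less RNA per cell cannot be told apart.

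**Figure D3:**
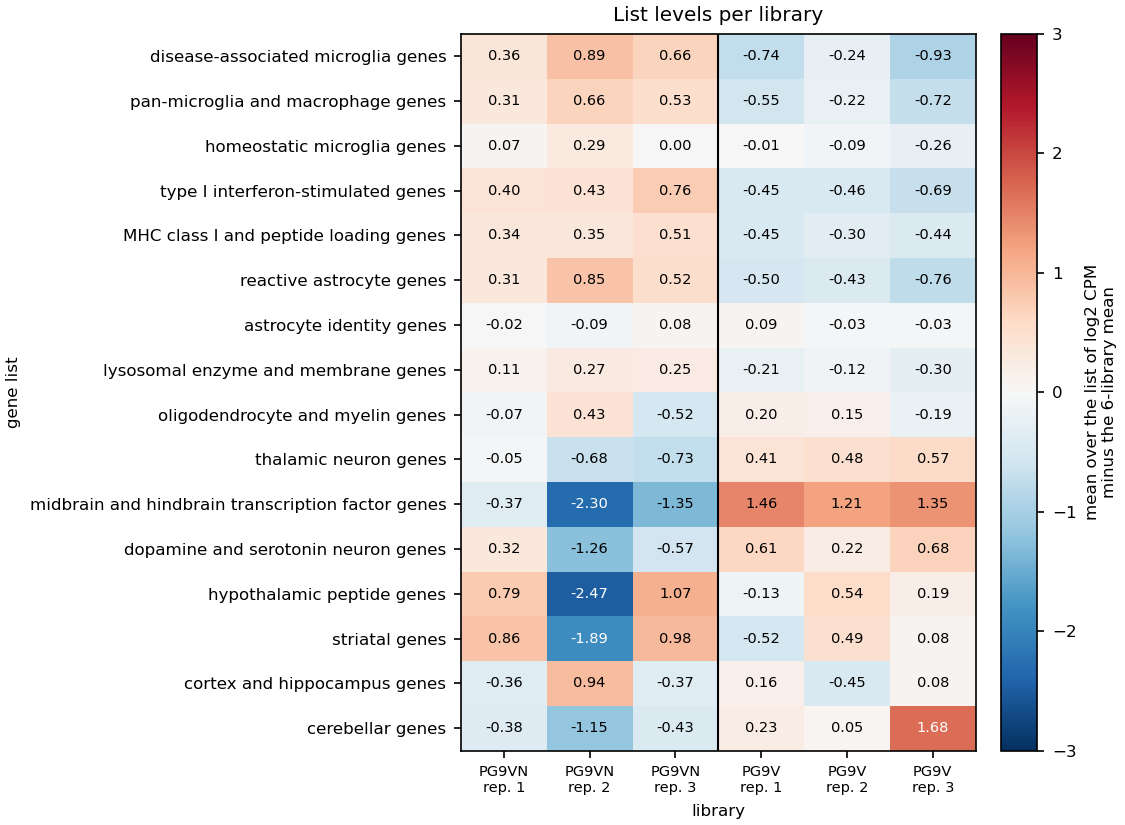
Mean over each gene list (rows) of log2 CPM minus the mean of the 6 libraries, for each library (columns), with red above and blue below 0. Microglial, interferon, MHC class I and reactive astrocyte lists lie above 0 in all 3 PG9VN libraries and below 0 in all 3 PG9V libraries, and the hypothalamic, striatal and cerebellar lists single out PG9VN replicate 2 and PG9V replicate 3.

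Grn, the gene both lines lack by general knowledge, came first. It stood at 4.67, 3.52 and 4.18 normalised counts (CPM, scaled to the library total) in PG9VN replicates 1 to 3 and at 4.36, 2.56 and 4.75 in PG9V, and WT held 46.9 to 55.2. The PG9VN and PG9V values overlapped (log2 difference 0.08 ± 0.26 SE, adjusted p = 0.932).

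Microglial genes were among those that rose. Of 17 pan-microglia and macrophage genes, all 17 lay without overlap above PG9V, 5 were called and 11 were called without PG9VN replicate 2, and the median log2 fold change was 0.92. Their summed level was 1435 to 1961 CPM in PG9VN, 648 to 1001 in PG9V and 289 to 333 in WT. Among the called members, Ctss, which encodes the lysosomal protease cathepsin S, stood at 328, 486 and 421 CPM in PG9VN and at 162, 212 and 142 in PG9V (log2 difference 1.26 ± 0.20, adjusted p = 0.0437). Runx1 and Irf8, both transcription factors of the myeloid lineage, rose by 1.23 ± 0.18 and 0.91 ± 0.13 (adjusted p = 0.0401 and 0.0413). Csf3r, the receptor for granulocyte colony-stimulating factor, rose by 0.72 ± 0.11 (adjusted p = 0.0420).

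Disease-associated microglia genes rose with them. Of 30 tested, 8 rose, 0 fell, 27 lay without overlap above PG9V, and the median log2 fold change was 1.37 (1.17 without PG9VN replicate 2, where 11 were called). Itgax, an integrin that forms complement receptor 4, stood at 14.6, 17.6 and 21.1 CPM in PG9VN, 5.13, 6.38 and 5.04 in PG9V and at most 0.413 in WT (log2 difference 1.69 ± 0.18, adjusted p = 0.0277). Cst7, which encodes the protease inhibitor cystatin F, stood at 14.9, 21.1 and 19.3 CPM against 5.42, 6.87 and 3.85, with WT at most 0.102 (log2 difference 1.78 ± 0.24, adjusted p = 0.0401). For both genes every PG9VN library was at least 2-fold above the highest PG9V library, and PG9V in turn lay far above WT. Igf1, a growth factor, rose by 1.14 ± 0.18 (adjusted p = 0.0435), and its PG9V values of 12.4 to 18.6 CPM overlapped the WT range of 11.7 to 16.9.

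Few homeostatic microglia genes passed the test. Of 18 tested, 1 rose and 0 fell, 6 lay without overlap above PG9V and 1 below, and the median was 0.23. P2ry13, a purine receptor gene of resting microglia, stood at 14.5 to 17.7 against 10.9 to 13.2 CPM without passing the test (0.45 ± 0.13, adjusted p = 0.177). Lists of other immune cells gave no calls by edgeR in the 6 libraries. Of 11 border macrophage and monocyte genes tested, 0 were called (3 higher and 0 lower at unadjusted p below 0.05), with a median of -0.04. Without PG9VN replicate 2 the median was 0.053, over the 12 genes tested there. All 14 genes of that list, untested ones included, summed to 132 to 174 CPM in PG9VN and 124 to 145 in PG9V. Of 14 T and NK cell genes tested, 0 were called (2 higher and 1 lower at unadjusted p below 0.05). All 20 genes of that list summed to 22.3 to 33.0 CPM in PG9VN and 17.7 to 21.7 in PG9V. Without PG9VN replicate 2, 3 of the 14 tested were called higher, and Cd3e, a subunit of the T cell receptor complex, stood at 0.821, 0.362 and 1.07 CPM in PG9VN against 0.289 to 0.390 in PG9V. Of 7 B and plasma cell genes, 0 were called by edgeR or DESeq2 (0 higher and 1 lower at unadjusted p below 0.05), with a median of -0.16. Without PG9VN replicate 2 the median was -0.99, over the 8 genes tested there. Igkc, an antibody light chain gene of that list, stood at 53.9 CPM in PG9V replicate 2, against 2.59 and 3.34 in the other PG9V libraries and 0.553 to 0.749 in PG9VN. Of 10 neutrophil genes only 2 had enough counts to be tested.

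**Figure D4:**
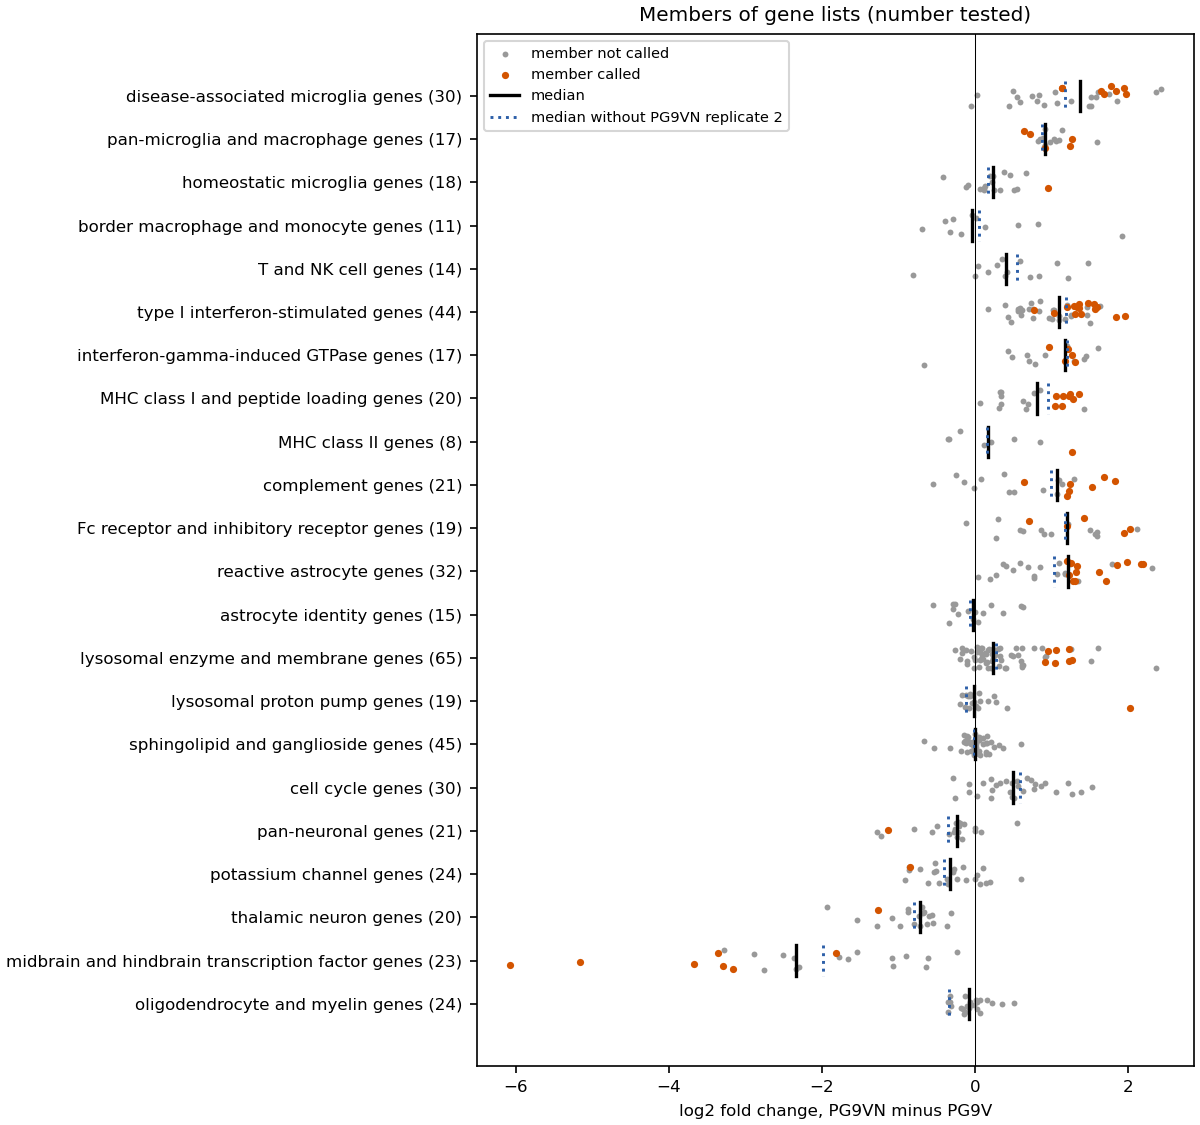
Log2 fold change of PG9VN against PG9V (horizontal) for every tested member of 22 gene lists (vertical, number tested in brackets), with called members in orange, the median as a black line and the median without PG9VN replicate 2 as a dotted line. The interferon, disease-associated and pan-microglia and reactive astrocyte lists centre near 1, homeostatic microglia genes at 0.23, lysosomal proton pump and sphingolipid lists near 0, and midbrain and hindbrain transcription factors far below 0.

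The 12 named genes that rose most included several products of activated phagocytes. Mmp12, the macrophage metalloelastase, stood at 38, 52.4 and 37.4 CPM in PG9VN, 5.13, 11.2 and 6.13 in PG9V and 1.41 to 1.78 in WT (log2 difference 2.51 ± 0.31, adjusted p = 0.0391). Rgs1, which dampens chemokine receptor signalling, stood at 8.88, 9.97 and 8.50 CPM against 0.992, 2.5 and 1.44 (2.46 ± 0.32, adjusted p = 0.0391). The lowest PG9VN value of each gene was more than 3 times the highest PG9V value. Ccl4 and Ccl3, chemokines that attract monocytes and T cells, rose by 2.56 ± 0.41 and 1.73 ± 0.29 (adjusted p = 0.0442 and 0.0480). Ccl4 stood at 2.53, 5.33 and 3.11 CPM against 0.744, 0.756 and 0.353. Gdf15, a stress-induced hormone of the TGF-beta family, stood at 1.93, 2.54 and 2.66 CPM against 0.354, 0.559 and 0.321, and WT reached at most 0.137 (2.52 ± 0.30, adjusted p = 0.0371). Lilr4b, a receptor gene with a near-identical neighbour Lilrb4a, rose by 2.41 ± 0.31 and its neighbour by 1.95 ± 0.31 (adjusted p = 0.0401 and 0.0458). Counts may be split between such copies. Bcl2a1d, of a multigene family of survival factors, and Wfdc17, a whey acidic protein-domain gene of activated macrophages, rose by 2.44 ± 0.35 and 2.13 ± 0.33 (adjusted p = 0.0405 and 0.0434).

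Receptor and complement genes rose as well. Of 19 Fc receptor and inhibitory receptor genes, 5 rose and 0 fell, with a median of 1.205 and 16 without overlap above PG9V. Fcgr2b, the inhibitory receptor for IgG, stood at 72.2, 68.5 and 66.6 CPM in PG9VN, 27.8, 38 and 24.1 in PG9V and 3.71 to 5.26 in WT (log2 difference 1.205 ± 0.17, adjusted p = 0.0401). Cd300lf, a lipid-binding inhibitory receptor, stood at 25.01, 22.1 and 25.1 CPM against 5.24, 7.86 and 4.69 (2.02 ± 0.21, adjusted p = 0.0267). Of 21 complement genes, 7 rose and 0 fell, with a median of 1.06. C3, the central component of the cascade, stood at 79.9, 91.8 and 102 CPM in PG9VN, 26.3, 29.6 and 21.1 in PG9V and 2.22 to 3.65 in WT (1.83 ± 0.15, adjusted p = 0.0173). Its receptor gene C3ar1 and the inhibitor gene Serping1 rose by 1.53 ± 0.15 and 1.22 ± 0.15 (adjusted p = 0.0265 and 0.0391). PG9VN libraries were thus above all PG9V libraries for the central component, a receptor and an inhibitor alike. Of 7 phagocyte oxidase genes, which make microbicidal oxygen radicals, all 7 lay without overlap above PG9V, and Hvcn1, the proton channel of that system, was called (1.19 ± 0.19, adjusted p = 0.0435).

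Interferon-induced genes rose as well. Of 44 type I interferon-stimulated genes, 15 rose and 0 fell, 42 lay without overlap above PG9V, and the median log2 fold change was 1.09. Without PG9VN replicate 2, 35 of the 44 were called higher, with a median of 1.18. Their summed level was 753 to 971 CPM in PG9VN and 387 to 441 in PG9V, and the WT range of 277 to 407 overlapped that of PG9V. Bst2, the tetherin that holds budding viruses, stood at 19.3, 31.3 and 30.7 CPM in PG9VN and at 6.76, 9.04 and 5.23 in PG9V (1.95 ± 0.26, adjusted p = 0.0401). Zbp1, a sensor of unusual nucleic acids, stood at 2.60, 3.48 and 3.73 CPM against 1.03, 0.789 and 0.931 (1.83 ± 0.24, adjusted p = 0.0391). For Slfn8 and Rtp4, the rise was 1.36 ± 0.17 and 1.33 ± 0.18 (adjusted p = 0.0391 and 0.0401). Irf7, the transcription factor that amplifies type I interferon responses, rose by 1.47 ± 0.24 (adjusted p = 0.0447), at 8.06, 11.3 and 14.3 against 4.43, 4.31 and 3.37 CPM.

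A further set was that of GTPases induced by interferon gamma and of class I presentation. Of 17 GTPase genes, 5 rose and 0 fell, 13 lay without overlap above PG9V and 1 below, and the median was 1.17. Irgm1, an immunity-related GTPase of intracellular membranes, stood at 33.3, 33.0 and 34.9 CPM in PG9VN and at 15.2, 14.7 and 13.8 in PG9V, with WT at 9.48 to 11.6 (1.21 ± 0.09, adjusted p = 0.0143). Gbp2, a guanylate-binding protein, stood at 17.6, 17.9 and 20.4 CPM against 7.51, 7.76 and 7.35 (1.30 ± 0.11, adjusted p = 0.0173). Within each line these values spread by far less than the gap between the lines. Gbp3 and Igtp rose by 1.17 ± 0.13 and 1.26 ± 0.17 (adjusted p = 0.0281 and 0.0391). Members of these families resemble each other, so their estimated counts may share reads. Of 20 MHC class I and peptide loading genes, 8 rose and 0 fell, with a median of 0.81. H2-K1 and H2-D1, the classical class I heavy chain genes, stood at 127 to 164 and 232 to 303 CPM in PG9VN against 58.1 to 72.9 and 107 to 135 in PG9V (1.24 ± 0.14 and 1.22 ± 0.15, adjusted p = 0.0319 and 0.0367). B2m, their common light chain, stood at 305, 396 and 379 CPM against 150, 200 and 141 (1.13 ± 0.17, adjusted p = 0.0434). Of 8 genes of the MHC class II list, 1 rose, Ctss, which trims the invariant chain, and the median was 0.16. DESeq2 called 2 higher, and 3 lay without overlap above PG9V. H2-DMb1 and H2-DMa, which help load peptides onto class II, stood at 4.75, 8.08 and 5.94 against 3.22, 3.58 and 3.60 CPM and at 10.7, 14.4 and 12.95 against 9.21, 9.11 and 8.51 (0.85 ± 0.22 and 0.503 ± 0.14, adjusted p = 0.132 and 0.161). H2-Aa, a class II chain gene, stood at 4.75, 3.81 and 5.42 CPM in PG9VN and 7.15, 4.31 and 6.20 in PG9V, with overlap (-0.34 ± 0.24, adjusted p = 0.622).

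The interferon-stimulated response element, bound by the ISGF3 and IRF factors, was searched for as GAAA, any 2 bases and GAAA again, on both strands in RefSeq promoters of 300 bases, from 250 before to 50 after each start (build GRCm38.p6). Promoters were matched for 130 of the 177 genes that rose, and 21 of these held a match (16.2%). Of all tested genes with a promoter, 484 of 12460 did (3.88%). The share was 16 of 31 for type I interferon-stimulated genes (51.6%), 9 of 10 for the GTPase genes (90.0%), 2 of 24 for disease-associated microglia genes (8.33%), and 1 of 18 for the 23 genes that fell (5.56%). The type I interferon-stimulated and GTPase lists were chosen as known interferon targets, so their share of matches is a description of the lists. The genes that rose include 15 of the former list and 5 of the latter, so their share is not separate from it. The stretches before the start are printed for 4 GTPase genes and B2m as examples, with matches, overlapping ones included, in capitals, on the strand of the gene. The examples were picked among promoters with a match. Isg15, Slfn8, Trim30a and Cxcl10 also held matches before the start and are not printed. Ifitm3 was looked up with them and gave none.
Irgm1, chr11:48871421-48871475, minus strand, 2 matches: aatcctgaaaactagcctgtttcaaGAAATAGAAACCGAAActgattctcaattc
Gbp2, chr3:142620579-142620638, plus strand, 1 match: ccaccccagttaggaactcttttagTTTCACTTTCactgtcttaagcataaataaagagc
Gbp3, chr3:142559974-142560039, plus strand, 2 matches: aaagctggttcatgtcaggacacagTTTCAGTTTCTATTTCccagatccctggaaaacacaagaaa
Igtp, chr11:58199497-58199555, plus strand, 1 match: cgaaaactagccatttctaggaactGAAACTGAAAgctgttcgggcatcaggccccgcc
B2m, chr2:122147523-122147582, plus strand, 1 match: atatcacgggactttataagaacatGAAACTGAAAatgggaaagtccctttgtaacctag
The match nearest to the start began 24 bases before it in Irgm1, 34 in Igtp, 39 in Gbp3, 59 in Gbp2 and 139 in B2m. A match is a run of letters and does not show that a factor was bound.

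Reactive astrocyte genes were among those that rose. Of 32 reactive astrocyte genes, 13 rose and 0 fell, 24 lay without overlap above PG9V, and the median was 1.21 (1.03 without PG9VN replicate 2, where 20 were called). Some of the called members also belong to interferon, MHC class I, complement, chemokine or cytokine receptor lists, namely Gbp2, Psmb8, C4b, Serping1, Cxcl10 and Osmr. The list is therefore not a separate count from those. Vim, the intermediate filament vimentin, stood at 349, 665 and 577 CPM in PG9VN, 105, 142 and 101 in PG9V and 37.5 to 50 in WT (2.19 ± 0.27, adjusted p = 0.0371). S1pr3, a receptor for sphingosine 1-phosphate, stood at 41.7, 75.5 and 73.6 CPM against 14.1, 15.5 and 12.9 (2.17 ± 0.24, adjusted p = 0.0281). PG9VN replicate 1 was the lowest of its group for both genes and still more than 2-fold above every PG9V library. Osmr, the receptor for oncostatin M, stood at 37.3, 46.8 and 56.7 CPM against 11.3, 13.1 and 11.3 (1.98 ± 0.17, adjusted p = 0.0173), and Socs3, the feedback inhibitor induced by such receptors, rose by 1.42 ± 0.19 (adjusted p = 0.0391). Ggta1, which makes alpha-galactosyl epitopes, and Aspg, an asparaginase, rose by 1.71 ± 0.14 and 1.32 ± 0.13 (adjusted p = 0.0173 and 0.0255). Of 15 astrocyte identity genes, 0 were called by edgeR (3 higher and 3 lower at unadjusted p below 0.05), DESeq2 called 2 higher and 1 lower, and edgeR called 3 higher without PG9VN replicate 2. The difference between these lists was not tested. The astrocyte identity genes' summed level was 8417 to 8938 CPM in PG9VN and 8456 to 9601 in PG9V. Slc1a3, the glutamate transporter GLAST, stood at 1027, 849 and 1141 CPM against 665, 605 and 693 (0.62 ± 0.14, adjusted p = 0.0975), and Fgfr3, a growth factor receptor of astrocytes, at 121 to 155 against 178 to 223 (-0.55 ± 0.14, adjusted p = 0.132).

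Some lysosomal enzyme genes rose. Of 65 enzyme and membrane genes, 7 rose and 0 fell, 35 lay without overlap above PG9V, and the median was 0.24. Without PG9VN replicate 2, 19 of the 65 were called higher and 0 lower, with a median of 0.27. Naglu and Galns, which degrade heparan and keratan sulfate, rose by 1.22 ± 0.13 and 0.91 ± 0.12 (adjusted p = 0.0281 and 0.0391). Ctsl, the protease cathepsin L, stood at 224, 345 and 269 CPM in PG9VN against 111, 141 and 107 in PG9V (1.23 ± 0.19, adjusted p = 0.0434). Of 19 proton pump genes, which acidify the lysosome, Atp6v0d2 alone rose, and the median was -0.02. Without PG9VN replicate 2, 2 of the 19 were called higher and 1 lower, and the median was -0.12. In that fit 3 were higher and 6 lower at unadjusted p below 0.05. Atp6v0d2, a subunit typical of osteoclasts and macrophages, stood at 11.4, 19.7 and 18.5 CPM against 3.12, 5.92 and 3.15, and at most 0.137 in WT (2.02 ± 0.33, adjusted p = 0.0455). Of 45 sphingolipid and ganglioside genes, the pathway of the stored lipid, 0 were called, with a median of 0.00. At an unadjusted p below 0.05 there were 4 higher and 2 lower, and DESeq2 called 2 higher and 1 lower. The edgeR fit without PG9VN replicate 2 also called 2 higher and 1 lower. Sgpl1, which degrades sphingosine 1-phosphate, stood at 74.5, 81.8 and 97.9 CPM against 56.5, 58.4 and 53.7 (0.59 ± 0.12, adjusted p = 0.0655), and St8sia1, the GD3 synthase, at 45.5, 41.6 and 39.6 against 60.5, 57.3 and 66.7 (-0.54 ± 0.10, adjusted p = 0.0551). Of 25 lipid transport and droplet genes, 4 rose and 0 fell. Plin2, which coats lipid droplets, stood at 21.7, 28.3 and 21.8 CPM against 9.28, 10.03 and 9.05 (1.34 ± 0.14, adjusted p = 0.0267), Msr1, a scavenger receptor, rose by 2.08 ± 0.27 (adjusted p = 0.0391), and Ch25h, which makes 25-hydroxycholesterol, by 1.65 ± 0.27 (adjusted p = 0.0477).

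Cell cycle genes did not pass the test in the 6 libraries, with 0 of 30 called by edgeR, 11 higher and 0 lower at unadjusted p below 0.05, and 8 higher by DESeq2. Their median was 0.50, and 5 were called higher without PG9VN replicate 2. Mki67, a marker of dividing cells, stood at 8.63, 6.74 and 10.7 CPM in PG9VN and at 3.08, 4.51 and 3.63 in PG9V, without overlap (1.22 ± 0.23, adjusted p = 0.0602). Outside the lists, Wisp2, a secreted matricellular protein gene, showed the largest rise among named genes, at 2.28, 4.602 and 4.01 CPM against 0.390, 0.526 and 0.482 (2.95 ± 0.34, adjusted p = 0.0319). Sctr, the secretin receptor gene, stood at 2.68, 2.72 and 4.46 CPM against 0.708, 0.921 and 0.674 (2.09 ± 0.30, adjusted p = 0.0401).

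**Figure D5:**
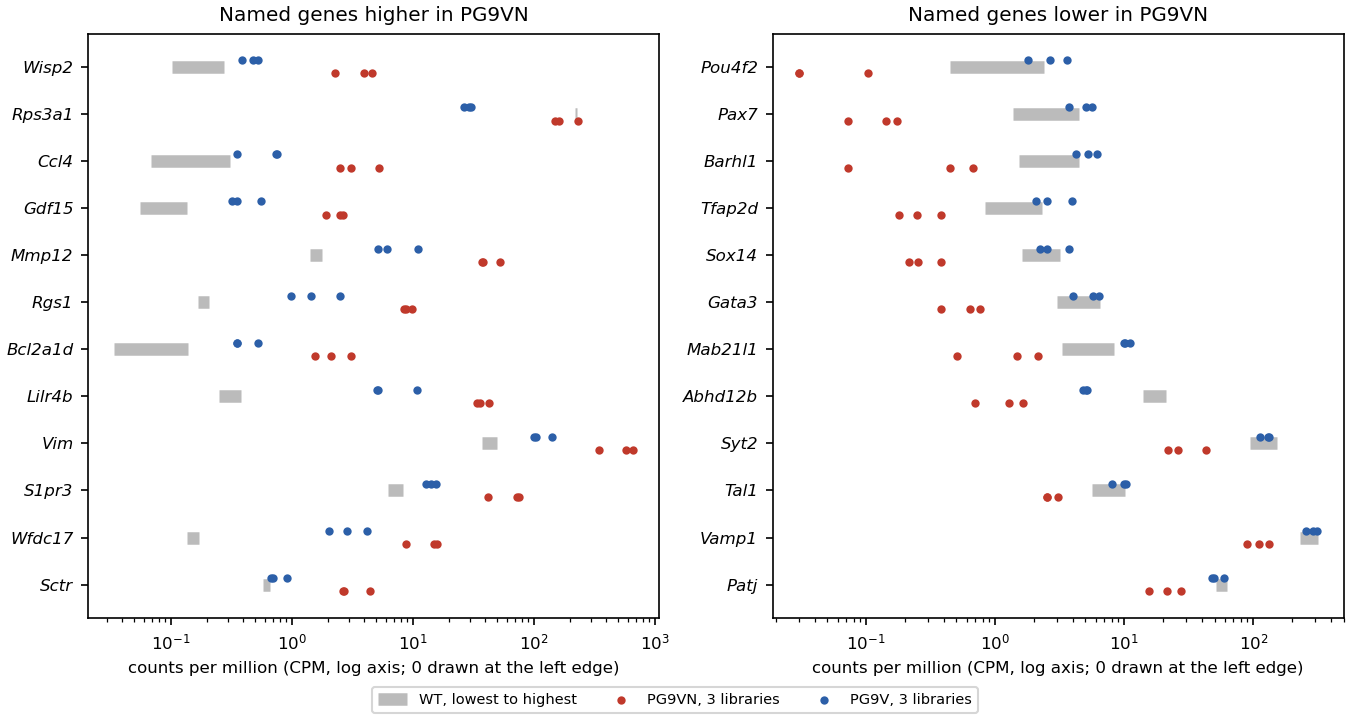
Level of the named genes that rose (left) and fell (right) in PG9VN, in CPM on a log axis, with 1 point per PG9VN (red) and PG9V (blue) library and a grey bar from the lowest to the highest WT library. The red and blue points do not overlap for any of the 24 genes, which was a condition for naming them. For most genes that fell the blue points lie in or near the WT range, while for most that rose the WT range lies below both lines.

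Among the genes that fell were transcription factors of midbrain and hindbrain neurons. Of 23 such factors tested, 7 fell and 0 rose, 19 lay without overlap below PG9V, and the median was -2.34 (-1.99 without PG9VN replicate 2, where 11 fell). Pax7, which patterns the superior colliculus, stood at 0.143, 0.0725 and 0.173 CPM in PG9VN, 5.03, 5.59 and 3.76 in PG9V and 1.37 to 4.44 in WT (-5.16 ± 0.34, adjusted p = 0.0124). The PG9VN values rest on 4, 2 and 5 counts, near the floor of 3 counts, so the size of the fall is uncertain. Gata3, a factor of midbrain GABAergic neurons, stood at 0.642, 0.761 and 0.380 CPM against 5.70, 6.35 and 3.98 (-3.16 ± 0.32, adjusted p = 0.0267). Tal1, which acts with GATA factors in the same neurons, stood at 3.07, 2.501 and 2.52 CPM against 10.02, 10.4 and 8.09 (-1.81 ± 0.17, adjusted p = 0.0255). All 3 PG9VN libraries were far below all PG9V libraries for these genes, while the PG9V values were within or just above the WT range. Pou4f2 held 3 counts in the 3 PG9VN libraries together, 0 in 2 of them, and 240 in PG9V (adjusted p = 0.0384). PG9V thus held 75.0 times as many per total count, with a 95% exact interval of 25.3 to 366 that covers counting error only. Sox14, Tfap2d and Barhl1 fell by 3.30 ± 0.35, 3.36 ± 0.40 and 3.68 ± 0.55 (adjusted p = 0.0277, 0.0350 and 0.0413). Mab21l1, a developmental gene of eye and midbrain, stood at 2.14, 0.507 and 1.49 CPM against 10.06, 9.997 and 11.01 (-2.90 ± 0.43, adjusted p = 0.0413).

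These factors mark dissected territory as well as cells, so the levels of other regional lists are given beside them. The midbrain and hindbrain list averaged -0.37, -2.30 and -1.35 on the log2 scale in PG9VN replicates 1 to 3, relative to the 6-library mean, and 1.46, 1.21 and 1.35 in PG9V. The thalamic list averaged -0.05, -0.68 and -0.73 against 0.41, 0.48 and 0.57. The hypothalamic list averaged 0.79, -2.47 and 1.07 against -0.13, 0.54 and 0.19, so PG9VN replicates 1 and 3 were the highest of the 6 and replicate 2 the lowest. The dopamine and serotonin neuron list averaged 0.32, -1.26 and -0.57 against 0.61, 0.22 and 0.68, with PG9VN replicate 1 inside the PG9V range. The cerebellar list, to which Barhl1 also belongs, averaged -0.38, -1.15 and -0.43 against 0.23, 0.05 and 1.68. The part of tissue content in the midbrain factors' values was not tested.

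A few genes of the thalamic and general neuron lists fell. Of 20 thalamic neuron genes, 1 fell and 0 rose, 14 lay without overlap below PG9V, and the median was -0.72 (-0.80 without PG9VN replicate 2, where 5 fell). Their summed level was 655 to 1043 CPM in PG9VN, 1349 to 1480 in PG9V and 1901 to 2091 in WT. Patj, a cell polarity scaffold, stood at 27.6, 15.5 and 21.5 CPM in PG9VN, 49.5, 47.6 and 58.9 in PG9V and 51.1 to 62.2 in WT (-1.27 ± 0.21, adjusted p = 0.0474). Rora, a nuclear receptor of thalamic relay neurons, stood at 58.0, 44.1 and 41.8 CPM against 92.6, 70.0 and 102 (-0.88 ± 0.18, adjusted p = 0.0697). Syt2 and Vamp1, which serve fast transmitter release in brainstem, spinal and thalamic neurons, stood at 43.1, 21.7 and 25.8 CPM against 132, 112 and 129 and at 131, 111 and 89.0 against 311, 287 and 255 (-2.04 ± 0.25 and -1.37 ± 0.16, adjusted p = 0.0391 and 0.0362). These were the 2 of 45 synaptic genes that fell, and the list's median was -0.20. Kcnc1, a potassium channel of fast-spiking neurons, was the 1 of 24 potassium channel genes that fell, at 152, 121 and 130 CPM against 250, 212 and 263 (-0.85 ± 0.13, adjusted p = 0.0434). Nefh, the heavy neurofilament subunit of large axons, was the 1 of 21 pan-neuronal genes that fell, at 70.5, 74.4 and 44.8 CPM against 145, 141 and 132, with WT at 170 to 211 (-1.14 ± 0.19, adjusted p = 0.0477). The median of the pan-neuronal list was -0.23, and without PG9VN replicate 2 the counts that fell were 6 of 21 pan-neuronal, 12 of 45 synaptic and 10 of 24 potassium channel genes. Abhd12b, of the alpha/beta hydrolase family, stood at 1.64, 1.27 and 0.691 CPM against 5.17, 4.77 and 5.07, and at 13.997 to 20.9 in WT (-2.06 ± 0.31, adjusted p = 0.0413).

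Myelin and vessel genes gave few calls. Of 24 oligodendrocyte and myelin genes, 0 were called by edgeR or DESeq2 and 0 had an unadjusted p below 0.05, with a median of -0.08, and without PG9VN replicate 2 the median was -0.34 with 7 lower at unadjusted p below 0.05. Of 12 oligodendrocyte precursor genes, Matn4, a matrix adaptor protein gene, rose at 23.5, 26.8 and 28.4 against 17.2, 17.6 and 15.7 CPM (0.64 ± 0.11, adjusted p = 0.0492). Of 17 endothelial genes, 0 were called (1 higher and 3 lower at unadjusted p below 0.05, and 1 higher by DESeq2). Icam1, an adhesion molecule for leukocytes, stood at 14.1, 22.03 and 21.2 CPM against 9.24, 9.87 and 9.44 (1.004 ± 0.18, adjusted p = 0.0559).

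The gene with the second smallest p, Rps3a1, encodes a protein of the small ribosomal subunit, on chromosome 3. It stood at 152, 231 and 163 CPM in PG9VN, 30.2, 29.5 and 26.7 in PG9V and 221 to 230 in WT (2.66 ± 0.18, adjusted p = 0.0124). Its copy Rps3a2, on chromosome 14, went the other way, at 58.4, 88.1 and 61.4 CPM against 139, 151 and 134, and WT held 0.103 to 0.171 (-1.03 ± 0.17, adjusted p = 0.0458). Rps3a1 made up 64.8% to 66.3% of the summed level of Rps3a1, Rps3a2 and Rps3a3 in PG9VN, 12.8% to 14.2% in PG9V and 99.9% in WT. The summed level was 237, 362 and 251 CPM in PG9VN and 211, 230 and 202 in PG9V, which overlapped WT at 221 to 230 and did not pass the test (0.37 ± 0.17, adjusted p = 0.421). The part of the division of reads between near-identical copies in these values was not tested. The annotated Rps3a2 sequence was 99.5% identical to Rps3a1 over 792 aligned bases, with 4 differences, and Rps3a3 98.9% over 795, with 9. A stretch of 60 bases was chosen in which the copy with fewer differences from Rps3a1 had as many as possible. It is printed because it shows how little tells the copies apart, with the differing bases in capitals (GENCODE transcripts of build GRCm38, counted from the transcript start).
Rps3a1, chromosome 3, bases 334 to 393: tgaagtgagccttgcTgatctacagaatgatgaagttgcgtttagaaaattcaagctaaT
Rps3a2, chromosome 14, bases 201 to 260: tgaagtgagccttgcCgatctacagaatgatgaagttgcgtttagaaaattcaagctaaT
Rps3a3, chromosome 13, bases 201 to 260: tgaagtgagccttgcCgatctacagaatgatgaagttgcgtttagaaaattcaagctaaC
Chromosome 3 as a whole held 13 genes that rose and 2 that fell, of 813 tested (1.85%). The share was 1.17% over all genes tested and reached 1.79% on other chromosomes. Whether called genes were concentrated on any chromosome was not tested.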

How the data were processed

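RNA was measured in 9 mouse brain libraries by poly(A) selection and stranded sequencing, per the labels' protocols. The authors deposited estimated counts of each transcript, on no length or depth scale. The submitters' processing notes name kallisto 0.43.1, HISAT2 2.0.5, Trimmomatic 0.33, FastQC and build mm39. Which tool made the counts is not stated there. The unit was inferred from the values, 59.6% of which were not whole (tolerance 0.001). Columns were matched to mice by name. Some genes are not reported here.

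Estimated counts of 105129 transcripts were summed per gene and rounded. Of 177 transcripts whose symbols had become dates, 173 were resolved through their identifiers and 4 left out. Near-identical copies and gene families share reads, so their split is uncertain. No coordinates of genes are given because the reference (GRCm38) is of another build; promoters are RefSeq's.

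The 3 PG9VN and 3 PG9V libraries were fitted alone with edgeR 4.0.16 in R 4.3.3 (filterByExpr, TMM, robust quasi-likelihood), with Benjamini-Hochberg adjustment over all 17074 genes and a threshold of 0.05. Every adjusted p named without a tool is edgeR's. CPM use TMM library sizes of the 6 libraries, while WT ranges and all summed levels use those of all 9. Errors are standard errors of log2 fold changes, back-calculated from edgeR's F statistic as the absolute change divided by the square root of F. Throughout, n is 3 per line. Alternatives were DESeq2 1.42.0, limma-voom 3.58.1, other normalizations and filters, and leaving out each library. On simulated data the test recovered most changed genes with the right sign, with a share of false calls above the nominal one.

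The totals of 27150311 to 30859540 counts put 3 counts at 0.0972 to 0.110 CPM. Replicates are separate mice, numbered in accession order. Gene lists were described by counts and medians with no test of a list, since the lists and the comparison were chosen with earlier results of these data known. Lists share some members, and a shared gene counts in each of them. Named genes were to be those called in all 7 fits; as 0 were, the 12 called genes with the largest change in each direction were named (mean of at least 2 CPM in the higher group, no overlap, no predicted genes), and up to 4 per list with the smallest p.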

Additional observations from a re-analysis of the deposited data

How the results depend on the processing

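With other settings, the genes called higher and lower were 718 and 230 by DESeq2, 909 and 393 by limma-voom with library weights (0.161 for PG9VN replicate 2), 302 and 44 with no filter, 473 and 116 with all 9 libraries in the fit, 319 and 172 without PG9VN replicate 2 and PG9V replicate 3 together, 44 and 5 with a covariate for the library with few Y-linked counts, and 277 and 39 with a transcript length offset. The cause was not tested. Leaving out 1 library gave 0 to 782 genes higher and 0 to 397 lower. DESeq2 called 404 genes whichever library was left out, where edgeR called 0. Upper-quartile and RLE factors, a stricter filter, limma-voom and sums by gene identifier stayed within 1.5 times of the 177 and 23. The lists with a called member numbered 0 to 40 when 1 library was left out, and 16 with the Y-linked covariate. Among lists with a called member, medians near 0 changed sign for MHC class II (-0.066 with that covariate), and ranged without 1 library from -0.062 to 0.43 there, from -0.12 to 0.068 for lysosomal proton pump and from -0.013 to 0.13 for oligodendrocyte precursor genes. The 3 libraries per line limit what can be called, and below 3 counts no level is resolved. No paired analysis was possible because the labels give no replicate numbers.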

Other observations

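Some called genes outside all lists belong together, and were picked after their values were seen. The receptor subunits for GM-CSF and interleukin 3 rose together. Csf2rb, their common signalling chain, stood at 10.6, 10.1 and 12.5 CPM in PG9VN and 3.58, 4.01 and 3.11 in PG9V (log2 difference 1.64 ± 0.16, adjusted p = 0.0265). Its mouse-specific neighbour Csf2rb2 rose by 1.29 ± 0.19, the ligand-binding chain genes Csf2ra and Il3ra by 0.58 ± 0.09 and 1.29 ± 0.20 (adjusted p = 0.0401, 0.0435 and 0.0435). Csf2rb and Csf2rb2 resemble each other, so counts may be shared. Of the annexin genes, which encode calcium-dependent membrane binders, Anxa2, Anxa3 and Anxa4 rose by 0.86 ± 0.13, 0.84 ± 0.14 and 1.21 ± 0.19 (adjusted p = 0.0414, 0.0458 and 0.0436), while Anxa1, Anxa5, Anxa6, Anxa7, Anxa8, Anxa9 and Anxa11 did not pass (adjusted p = 0.0873 to 0.915). S100a6, a small calcium-binding protein gene, stood at 40.8, 89.2 and 58.0 CPM in PG9VN against 15.3, 19.9 and 13.2 in PG9V (1.96 ± 0.30, adjusted p = 0.0435). Plau, the urokinase plasminogen activator, stood at 16.7, 21.9 and 19.1 against 4.39, 6.38 and 3.11 CPM (2.06 ± 0.26, adjusted p = 0.0391).

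Among the genes that fell outside the lists, Acan, the aggrecan of perineuronal nets, stood at 3.60, 3.26 and 2.80 CPM in PG9VN and 7.47, 6.48 and 6.74 in PG9V, with WT at 6.998 to 15.1 (-1.10 ± 0.16, adjusted p = 0.0413).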
